A study of Rattus norvegicus with 3 samples.

Results

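Adenosine deaminases that act on double-stranded RNA and the RNA-binding proteins that promote or limit back-splicing were followed in RNA released from rat spinal cord after contusion. The set holds 8 named genes, ADAR, ADARB1, QKI, MBNL1, MBNL2, HNRNPL, DHX9 and ILF2, out of 12771 entries in the authors' table. They were chosen by name. The choice of these genes, and of the lists set beside them below, was made with earlier results of these data known. Of the 8, 7 are listed under their own symbol. QKI has no entry of that name, but the table lists QK, which the RefSeq rat gene table gives as a synonym of Qki and of no other gene. That entry is described as QKI, and counts are given with and without it.

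The No-SCI rats had a laminectomy at thoracic level 9 alone, and the SCI rats had the same laminectomy followed by a contusion. All were female Sprague Dawley rats 3 months old, and about 2 mm of cord just rostral to the injury was taken 24 h later. The tissue of both groups was digested at 6°C with a cold-active protease, the cells were spun down, and total RNA of the acellular supernatant was depleted of ribosomal RNA and sequenced. By their labels, 2 libraries are No-SCI and 1 is SCI, while the methods state 2 animals per condition.

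Each entry has 1 FPKM value for No-SCI and 1 for SCI. FPKM scales the fragment count of a gene by its transcript length and by the number of reads mapped. No value per library was used here, so no SD, no n and no test stand behind any comparison. The read count behind each value is unknown. All FPKM values printed come from the authors, 1 per group. For each entry the SCI value was divided by the No-SCI value and the quotient given on the log2 scale, and a gene was counted as past the threshold when its value differed by at least 1.5-fold. That is a rule of size and not of significance.

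RNA editing by ADAR enzymes converts adenosine to inosine in double-stranded RNA, and it loosens the paired repeats that flank many circularised exons. In back-splicing, a downstream splice donor joins an upstream acceptor, so that the exons between them close into a ring. QKI, the Muscleblind proteins and HNRNPL bind the introns or exons around such a junction, whereas DHX9 unwinds paired introns and ILF2 belongs to a complex that binds them. ADAR1, the product of ADAR, is also known for keeping cellular double-stranded RNA from being sensed as foreign, and it was the target of the knockdown in the neuron cultures of the study, which were not analysed here.

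Among the 8 genes, 7 were lower and 1 was higher in SCI than in No-SCI, while 56.3% of all entries were lower. ADAR was the one gene past 1.5-fold, and it was 3.22-fold lower. Among all entries, 26.3% were at least 1.5-fold lower and 16.9% at least 1.5-fold higher in SCI. The count of 1 of 8 lower, or 1 of 7 without QKI, therefore does not exceed the share among all entries, and 0 of 8 were past the threshold upward. At the lower fold minimum of 1.3 that the study's methods name, 5 of 8 genes were lower, or 4 of 7 without QKI, against 35.7% of all entries, and 0 were higher, against 24.6%. At 2-fold, ADAR alone was lower, against 12.1% of all entries, and 0 genes were higher, against 7.96%.

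The median log2 ratio of the 8 genes was −0.49, and it was −0.49 for the 7 listed under their own symbol. The median over all entries was −0.12, with quartiles at −0.61 and 0.37. Each of the 7 genes other than ADAR lay between those quartiles. ADAR lay at percentile 2.54 of the log2 ratios of all entries.

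**Figure D1:**
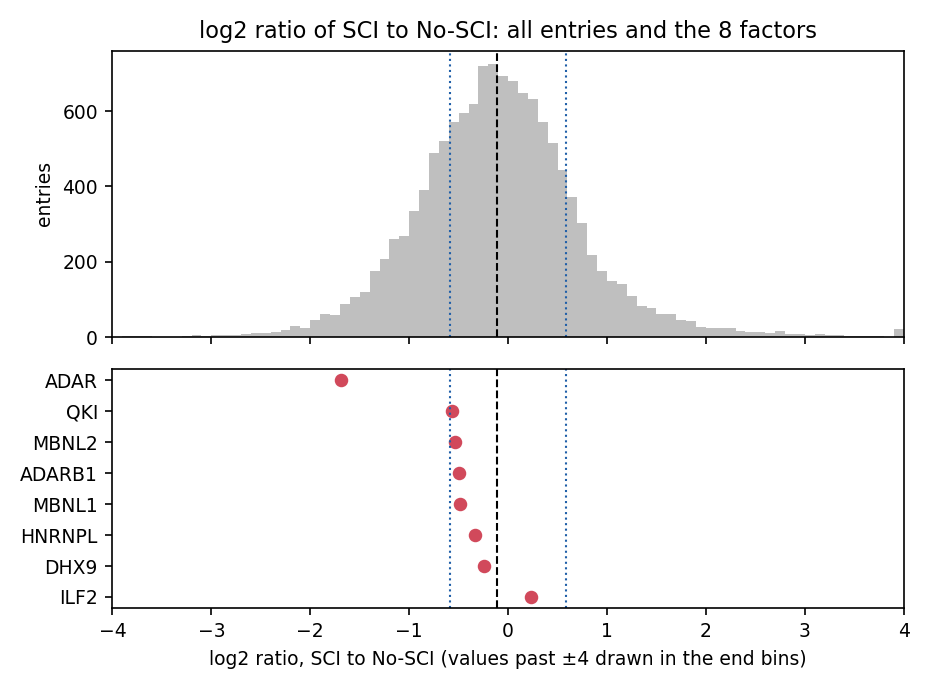
Histogram of log2 ratios (SCI over No-SCI) over all 12771 entries (top, number of entries in bins of the log2 ratio) and the log2 ratio of each of the 8 genes (bottom, 1 point per gene). The dashed line is the median of all entries at −0.12 and the dotted lines mark 1.5-fold. ADAR stands at −1.69, left of the other 7 genes, which lie between −0.56 and 0.23.

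The 2 editing enzymes differed in level and in the size of their difference between groups. ADAR encodes ADAR1, which exists as a constitutive nuclear form and a longer interferon-inducible form, and both are counted in 1 entry. Its value was 27.0 FPKM in No-SCI and 8.38 FPKM in SCI. The log2 ratio was −1.69, and 31.0% of the No-SCI level was left. In rank among all entries it went from percentile 60.7 in No-SCI to percentile 34.7 in SCI.

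ADARB1 encodes ADAR2, the enzyme that recodes glutamate receptor transcripts in neurons. It had 73.6 FPKM in No-SCI and 52.2 FPKM in SCI, a log2 ratio of −0.49. This is 1.41-fold lower and not past the threshold. ADARB1 was above ADAR in both groups, at 2.72 times its level in No-SCI and 6.23 times in SCI. ADARB2, a brain-expressed relative with no known editing activity, had 9.36 FPKM in No-SCI and 2.60 FPKM in SCI. The difference of ADARB2, 3.61-fold lower, was past the threshold like that of ADAR.

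QKI had the highest level of the set. Quaking is a STAR-family RNA-binding protein that is abundant in oligodendrocytes and astrocytes and promotes the circularisation of exons whose flanking introns it binds. The QK entry had 1572 FPKM in No-SCI and 1063 FPKM in SCI, which ranked it at percentiles 99.2 and 98.8 of the table. The log2 ratio was −0.56, or 1.48-fold lower, which falls just short of the threshold.

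Oligodendrocyte markers were lower in SCI as well. Of 12 such markers 11 are listed, and 9 of the 11 were at least 1.5-fold lower, with a median log2 ratio of −1.11. That is a share of 81.8%, against 26.3% of all entries. The summed level of the 11 was 88318 FPKM in No-SCI and 48332 FPKM in SCI. MBP, a defining gene of that list, has no entry. Of 9 astrocyte markers 4 are listed, all of them at least 2-fold lower, against 12.1% of all entries. The summed level of the 4 was 167 FPKM in No-SCI and 64.01 FPKM in SCI. GFAP, AQP4, SLC1A3, ALDOC and S100B have no entry. In bulk RNA such as this, fewer cells or processes of a type and less RNA in each cannot be told apart, and the part of these markers in the value of QKI was not tested.

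The other members of the STAR family gave mixed values. KHDRBS1, which encodes SAM68, had 22.5 FPKM in No-SCI and 28.7 FPKM in SCI. KHDRBS2 and KHDRBS3, which are more restricted to neurons, were 2.26-fold and 2.02-fold lower in SCI. SF1, the branch point binding protein, had 238 FPKM in No-SCI and 169 FPKM in SCI. QKI stood above all 4 of these relatives in both groups.

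The Muscleblind-like genes MBNL1 and MBNL2 encode zinc finger proteins that regulate alternative splicing, and the MBNL1 locus is itself a known source of a circular RNA that its protein binds. MBNL1 had 446 FPKM in No-SCI and 318 FPKM in SCI, a log2 ratio of −0.49. MBNL2 had 201 FPKM in No-SCI and 138 FPKM in SCI, a log2 ratio of −0.54. Both were lower by a like factor, 1.40-fold for MBNL1 and 1.45-fold for MBNL2, and neither was past the threshold. MBNL1 was 2.22 times as high as MBNL2 in No-SCI and 2.30 times as high in SCI. MBNL3 has no entry.

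Muscleblind proteins are also abundant in muscle, and skeletal muscle markers differed between the groups. All 6 listed muscle markers were lower in SCI, against 56.3% of all entries. The summed level of the 6 was 382 FPKM in No-SCI and 29.1 FPKM in SCI. The part of muscle RNA in the values of MBNL1 and MBNL2 was not tested. An FPKM value of a gene counts linear and circular transcripts together, so the circular RNA of MBNL1 cannot be told apart from its messenger RNA here.

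HNRNPL binds CA-rich sequence and takes part in alternative splicing and in circular RNA formation. It had 177 FPKM in No-SCI and 140 FPKM in SCI, a log2 ratio of −0.33. Its close paralog HNRNPLL went the other way, with 10.6 FPKM in No-SCI and 24.3 FPKM in SCI, 2.30-fold higher. The level of HNRNPL was 16.7 times that of HNRNPLL in No-SCI and 5.78 times in SCI. HNRNPLL is known from lymphocytes, where it controls the splicing of Ptprc.

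DHX9, also called RNA helicase A, resolves RNA duplexes formed by inverted repeats and thereby limits circular RNA formation. It was the lowest of the set, with 9.89 FPKM in No-SCI and 8.33 FPKM in SCI, a log2 ratio of −0.25. In SCI it stood beside ADAR, whose value of 8.38 FPKM is nearly the same. The other helicases DHX15, DHX30 and DHX36 had log2 ratios of −0.54, −0.90 and −0.28. Of these only DHX30 was past the threshold.

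ILF2, also called NF45, is a subunit of a complex that binds double-stranded RNA, paired introns of circularised exons included. ILF2 was the one gene of the set that was higher in SCI, with 91.02 FPKM in No-SCI and 107 FPKM in SCI, a log2 ratio of 0.23. ZFR, which shares a dimerisation domain with ILF2, was 1.77-fold lower, with 302 FPKM in No-SCI and 171 FPKM in SCI. ZFR2 had 8.91 FPKM in No-SCI and 5.40 FPKM in SCI.

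**Figure D2:**
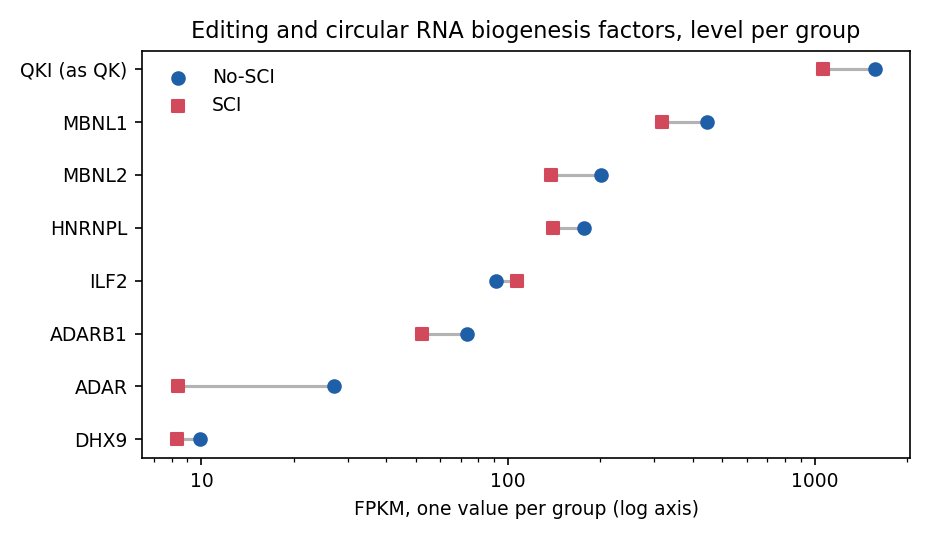
Level of each of the 8 genes in FPKM on a log axis, with 1 group value for No-SCI (circles) and 1 for SCI (squares) and a line joining the pair; no error bars can be drawn. QKI, drawn from the entry QK, is highest at 1572 and 1063 FPKM, and ADAR has the longest line, from 27.0 to 8.38 FPKM.

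The order of the levels was nearly the same in both groups. In No-SCI it ran QKI, MBNL1, MBNL2, HNRNPL, ILF2, ADARB1, ADAR and DHX9, and in SCI HNRNPL and MBNL2 changed places, at 140 and 138 FPKM. Without a spread between libraries, it cannot be said whether neighbours in this order differ. The range in No-SCI was from 9.89 to 1572 FPKM. Of the 8 genes all have at least 1 value with 7 significant digits, more than the 6 that a single estimate is usually printed with, as do 58.6% of all entries. Such a value may be a sum or mean of several estimates, and levels compared between genes depend on that.

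Among 14 paralogs and partners of the 8 genes, 11 are listed. Of these 9 were lower and 2 higher, and 6 were at least 1.5-fold lower and 1 at least 1.5-fold higher. The shares past 1.5-fold were 54.5% and 9.09%, against 26.3% and 16.9% of all entries. The median log2 ratio of the 11 was −0.72. Earlier results of these data were known when this list was chosen, so the contrast is not independent evidence. The genes past the threshold downward were ADARB2, KHDRBS2, KHDRBS3, DHX30, ZFR and ZFR2.

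Sensors of double-stranded RNA read the same substrate that ADAR1 edits. Of 14 such genes 12 are listed, 9 were at least 1.5-fold lower in SCI and 1 at least 1.5-fold higher, and the median log2 ratio was −1.27. At 2-fold, 7 of the 12 were lower, against 12.1% of all entries. The share of the list past 1.5-fold downward was 75%, and among all entries it was 26.3%. The list was chosen with earlier results of these data known, so this contrast is not independent evidence.

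EIF2AK2, which encodes the kinase PKR, was the most abundant sensor, with 78.8 FPKM in No-SCI and 31.01 FPKM in SCI. OAS1B, an oligoadenylate synthetase, had 20.4 FPKM in No-SCI and 7.65 FPKM in SCI. TLR3, an endosomal receptor, had 19.6 FPKM in No-SCI and 6.15 FPKM in SCI. Each of these was lower by a factor between 2.54 and 3.18, beside 3.22 for ADAR.

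OASL was 3.91-fold lower and IFIH1, which encodes MDA5, was 2.33-fold lower. DDX58, which encodes RIG-I, had 6.48 FPKM in No-SCI and 1.80 FPKM in SCI, close to 1, the lowest value in the table. MAVS, the adaptor downstream of RIG-I and MDA5, had 26.9 FPKM in No-SCI and 30.1 FPKM in SCI. TRIM25 and ZCCHC3, cofactors of RIG-I, had log2 ratios of 0.42 and 0.73. Their levels were low, from 4.78 to 6.39 FPKM for TRIM25 and from 2.46 to 4.08 FPKM for ZCCHC3. ZCCHC3 was the 1 listed gene at least 1.5-fold higher, and that count was 0 when 1 was added to every value. The genes that encode the cofactors and the adaptor were the 3 of the list that were not lower.

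Many of these sensors are induced by interferon through an element whose core is GAAA, any 2 bases and GAAA again. The windows that hold this core are shown as a description of the reference. ADAR has no window there, and a part of interferon in the values of ADAR and the sensors was not tested. The RefSeq promoter windows of assembly GRCr8, 250 bases before to 50 bases from the start of the gene on, were searched for that core on both strands. Overlapping matches were allowed. Of the 12 listed sensors 9 have a window. Many of the sensors are known to be interferon-induced, so a count of the motif among them is not independent evidence. Of the 9, 4 hold the motif, while 3.92% of all 33469 windows do. In each of the 4 genes the 30 bases around it read as follows, 5′ to 3′ on the strand of the gene, with the motif in capitals and 2 overlapping matches in OAS1A and OAS1B.
IFIH1 (chr3:67684008-67684037, minus strand): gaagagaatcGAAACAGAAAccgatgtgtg
EIF2AK2 (chr6:21941128-21941157, plus strand): agtccgccggGAAAACGAAAcagagagaac
OAS1A (chr12:41330415-41330444, plus strand): cccctctcggGAAATGGAAACTGAAAatct
OAS1B (chr12:41395892-41395921, minus strand): cccttcccggGAAATGGAAACTGAAAaccc
The motif starts 59 bases before the gene start in IFIH1 and OAS1B, 41 before it in OAS1A and 16 before it in EIF2AK2. All 4 genes were lower in SCI, OAS1A by 1.65-fold, from 15.4 to 9.34 FPKM. OASL and TLR3, whose windows do not hold the motif, were lower by larger factors than any of the 4, 3.91-fold and 3.18-fold. The level of OASL was low, 8.45 FPKM in No-SCI and 2.16 FPKM in SCI. MAVS, TRIM25 and ZCCHC3, which were not lower, have windows without the motif as well. DDX58 is among the sensors without a window. The windows of 7 of the 8 editing and biogenesis factors, all but ADAR, were searched too, and 0 of them hold these letters. A match of letters is a description of the reference and not evidence that a factor bound there in these animals.

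**Figure D3:**
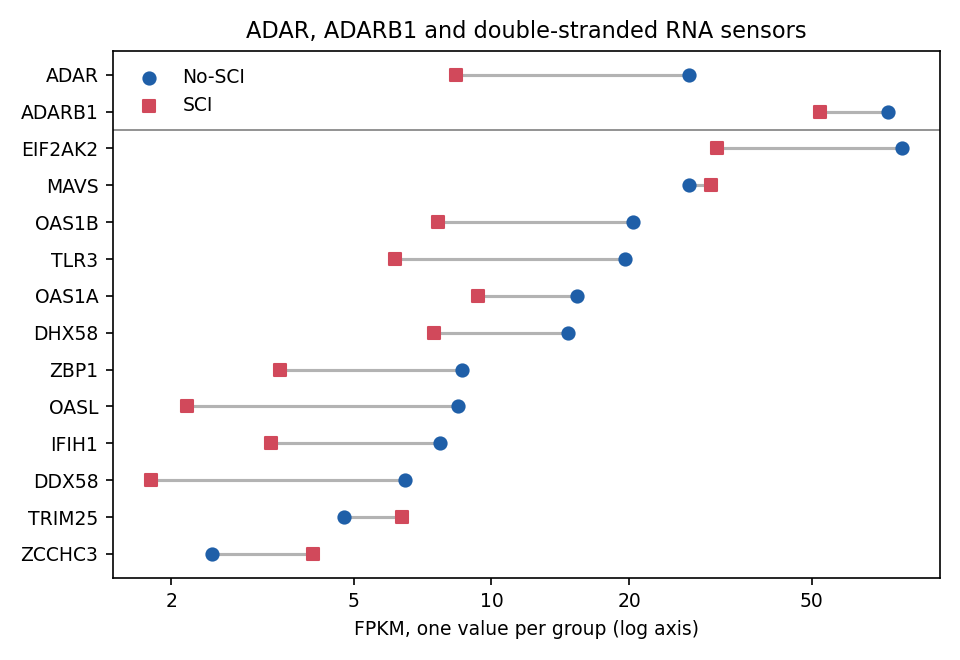
Level in FPKM on a log axis of ADAR and ADARB1 (above the horizontal line) and of the 12 listed sensors of double-stranded RNA (below it), with 1 group value for No-SCI (circles) and 1 for SCI (squares). ADAR and 9 sensors have the SCI value to the left of the No-SCI value, and MAVS, TRIM25 and ZCCHC3 have it to the right.

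Transcripts that ADAR enzymes are known to edit were mostly lower as well. Of 24 such genes 19 are listed, 12 were at least 1.5-fold lower and 2 at least 1.5-fold higher, with a median log2 ratio of −0.82. These are shares of 63.2% and 10.5%, against 26.3% and 16.9% of all entries. Earlier results of these data were known when this list was chosen, so the contrast is not independent evidence. The AMPA receptor subunit genes GRIA3 and GRIA4 were 3.12-fold and 3.01-fold lower, GRIA3 from 12.4 to 3.97 FPKM and GRIA4 from 12.5 to 4.16 FPKM. AZIN1, the most abundant substrate of the list, had 183 FPKM in No-SCI and 92.8 FPKM in SCI. IGFBP7 went the other way, with 4.66 FPKM in No-SCI and 31.6 FPKM in SCI. These are levels of the transcripts, and the share of edited bases was not analysed here.

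Genes reported to bind, stabilise or compete with the ADAR enzymes were split. Of 11, 10 are listed, with 6 lower and 4 higher. Past 1.5-fold, 3 were lower and 1 was higher, but 1 lower and 3 higher after centring on the median of all entries. As deposited the shares were 30% and 10%, against 26.3% and 16.9% of all entries. The shares of all entries after centring were not computed, so the centred counts have none beside them. The one past the threshold upward as deposited, SRSF9, a splicing factor reported to repress editing by ADAR2, had 101 FPKM in No-SCI and 337 FPKM in SCI. AIMP2, reported to lower ADAR protein, was 1.49-fold higher, just short of the threshold. DICER1, the ribonuclease that makes microRNAs and can pair with ADAR1, was 1.82-fold lower.

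Deaminases of other kinds and their cofactors were split. Of 8 genes for tRNA and C-to-U editing 5 are listed, and 3 were at least 1.5-fold higher and 1 at least 1.5-fold lower. Among all entries 16.9% were that much higher and 26.3% that much lower. ADAT1, the one listed tRNA deaminase, had 11.8 FPKM in No-SCI and 10.3 FPKM in SCI. APOBEC1, the cytidine deaminase of apolipoprotein B RNA, had 38.6 FPKM in No-SCI and 68.8 FPKM in SCI. RBM47, its RNA-binding cofactor, was 2.31-fold higher. APOBEC3B, listed as APOBEC3, was 2.68-fold higher. APOBEC2, which is expressed in striated muscle, had 13.9 FPKM in No-SCI and 7.03 FPKM in SCI. Among blood cell markers 3 of the 4 listed, LYZ2, S100A8 and S100A9, were at least 2-fold higher, against 7.96% of all entries. LYZ2 went from 201 to 611 FPKM. The most abundant of the 4, HBB, was not higher, with 490 FPKM in No-SCI and 464 FPKM in SCI. HBA1 has no entry. The part of blood cells in the values of the deaminases and their cofactors was not tested.

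Other proteins reported to regulate back-splicing were near the middle of all entries. Of 26 genes 23 are listed, 4 were at least 1.5-fold lower and 2 at least 1.5-fold higher, and the median log2 ratio was −0.15. The shares were 17.4% and 8.70%, against 26.3% and 16.9% of all entries. With means under 5 FPKM left out, 1 in place of 2 was at least 1.5-fold higher. HNRNPC, the most abundant of them, had 3200 FPKM in No-SCI and 3083 FPKM in SCI, above QKI in both groups. RBFOX2, a splicing regulator, had 39.4 FPKM in No-SCI and 103 FPKM in SCI. NOVA1 and PTBP2, both known from neurons, were 2.22-fold and 2.25-fold lower. HNRNPM, which binds GU-rich introns, had 321 FPKM in No-SCI and 411 FPKM in SCI.

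Factors of circular RNA export, methylation and decay differed little. Of 22 genes 19 are listed, 2 were at least 1.5-fold lower and 1 at least 1.5-fold higher, against 26.3% and 16.9% of all entries. At 2-fold, 0 were past in either direction, against 12.1% lower and 7.96% higher of all entries. DDX39A, which exports short circular RNAs, had 38.8 FPKM in No-SCI and 69.7 FPKM in SCI, whereas DDX39B, which exports long ones, had 144 and 161 FPKM. METTL14, a subunit of the m6A methyltransferase, was 1.71-fold lower. RIDA, which links m6A-marked circular RNAs to cleavage, was 1.74-fold lower, with 132 FPKM in No-SCI and 75.7 FPKM in SCI.

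Host genes of circular RNAs were described by their gene-level FPKM alone, in which rings and linear transcripts are summed. Of 20 host genes known from earlier work 16 are listed, and 5 were at least 1.5-fold lower and 1 at least 1.5-fold higher. Among all entries 26.3% were that much lower and 16.9% that much higher. The median log2 ratio of −0.04 changes sign when the ratios are centred on the median of all entries. SLC8A1 was 3.24-fold lower, with 32.7 FPKM in No-SCI and 10.1 FPKM in SCI. HIPK3 had 51.4 FPKM in No-SCI and 62.6 FPKM in SCI. The 22 host genes that the study names were picked by the study on these same samples, so their counts of 13 lower and 9 higher, all past 2-fold, are not independent evidence of a direction. RIMS2 among them had 184 FPKM in No-SCI and 68.5 FPKM in SCI.

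**Figure D4:**
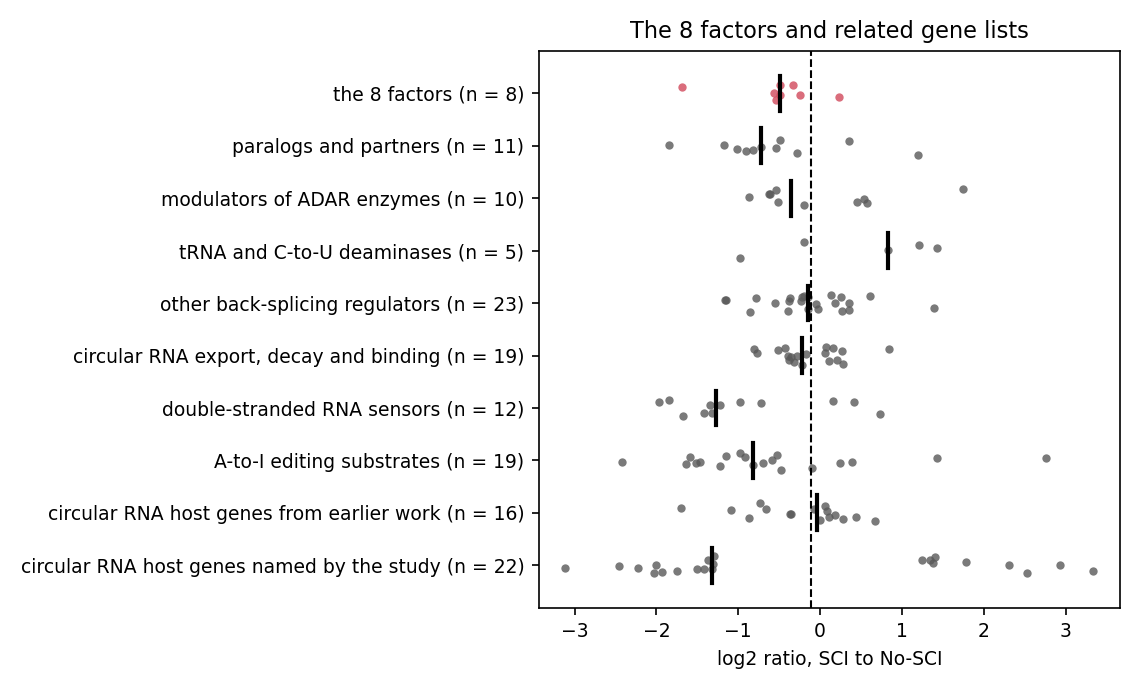
Log2 ratio (SCI over No-SCI) of each listed gene (points, spread vertically for legibility) of the 8 factors and of 9 related lists, with the median of each list as a bar and the median of all entries, −0.12, as a dashed line. The sensors of double-stranded RNA have a median of −1.27 and the other back-splicing regulators one of −0.15.

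Further markers describe what else the supernatant held. For reference, 12.1% of all entries were at least 2-fold lower, 7.96% at least 2-fold higher and 16.9% at least 1.5-fold higher. Of 9 neuron markers 7 are listed, 3 at least 2-fold lower and 0 at least 1.5-fold higher, with summed levels of 3581 FPKM in No-SCI and 2356 FPKM in SCI, while SNAP25 and NEFM have no entry. All 7 microglia markers are listed, 3 were at least 2-fold lower, and the summed level was 756 FPKM in No-SCI and 701 FPKM in SCI. All 7 meningeal fibroblast markers were at least 2-fold higher, with a summed level of 49.1 FPKM in No-SCI and 733 FPKM in SCI. Of 5 endothelial markers 3 are listed, 1 at least 2-fold higher and 0 at least 2-fold lower, with a median log2 ratio of 0.43. The summed level of the 3 was 22.5 FPKM in No-SCI and 28.7 FPKM in SCI. The part of all these markers in the values of the 8 factors was not tested.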

How the data were processed

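RNA of the acellular fraction was measured in 2 No-SCI libraries and 1 SCI library per the labels. The authors downsampled each library to the one with the fewest reads, mapped the reads to rn6 with STAR 2.5.4b and estimated FPKM per group with Cuffdiff 1.3.0, with upper quartile normalization. The deposited FPKM values, 1 per group and entry, were used, and 0 value columns were left without a group. The authors' p-value, q-value and fold change columns were not used. The methods state a read number per sample, but not the number left after downsampling. With 1 value per group, no interval was given.

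From these values log2 ratios without a pseudocount, percentiles among all entries and counts past 1.5-fold were computed with Python 3.11.15, numpy 2.4.6 and pandas 2.3.3, and plotted with matplotlib 3.10.9. The code of the ratio and count steps was checked on simulated data without noise, which says nothing of the spread between animals. For the 13 symbols listed more than once, the one with the higher mean was kept. Symbols absent from the table were looked up by their RefSeq synonyms. The members and lists were chosen with earlier results of these data known. Named genes are all 8 members, paralogs and partners, and from each list the 3 most abundant and the 3 with the largest and the smallest ratio at a mean of at least 5 FPKM. Other named genes (IFIH1, DDX58, ZCCHC3 and RIMS2) were chosen after their values were seen. Some genes are not reported here. In the lists, DDX15 was read as DHX15 and RIGI as DDX58, which are the same genes. Alternatives were pseudocounts of 1 and 0.1, subtraction of 1, scaling to the median, upper quartile or total, other fold thresholds, a minimum mean and summed repeated symbols.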

Additional observations from a re-analysis of the deposited data

How the results depend on the processing

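All 64 recomputed log2 ratios of the 8 genes kept their sign and their side of the 1.5-fold threshold. Settings were pseudocounts of 1 and 0.1, subtraction of 1, median centring, and upper quartile and total scaling. A minimum mean of 5 FPKM and summed repeated symbols were also tried but could not change these ratios. Each of the 8 genes has 1 entry and a mean above 5 FPKM. The centring and the scalings shift every ratio by the same amount. ADAR ranged from −1.82 to −1.57, and ILF2 from 0.23 to 0.35. The median of the 8 ranged from −0.50 to −0.38. The count of members lower depended on the threshold, with 5 at 1.3-fold against 1 at 1.5-fold and at 2-fold. Of 476 list results, 43 moved. A median was said to move when it changed sign, crossed the 1.5-fold threshold or shifted by more than 1.5-fold. A count was said to move when it changed by more than 1.5-fold, or between 0 and a positive number. Median centring changed the modulators of ADAR enzymes from 3 lower and 1 higher to 1 lower and 3 higher. Shares of all entries were computed for the values as deposited and not under the alternatives of scaling or minimum mean. With means under 5 FPKM left out, 7 in place of 12 editing substrates were at least 1.5-fold lower, but fewer substrates were then counted. The median log2 ratio of the substrates was then −0.64 in place of −0.82.

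No paired analysis was possible because the table holds 1 value per group, and no library was left out for the same reason. Whether the differences exceed the spread between animals is unknown.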
